A study of Homo sapiens with 9 samples.

Results

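The genes described here make, lengthen, desaturate and activate fatty acids: FASN, ACACA, ACLY, ELOVL5, ELOVL2, FADS1, FADS2, SCD, SREBF1 and ACSL1. They were chosen by name, with earlier results of these data known. Every probe set that the platform annotation assigns to them was kept apart. Of 22215 probe sets that were not controls, 20 carried the symbol of 1 of 9 of these genes alone. Another 3 were annotated to FADS1 and the microRNA gene MIR1908 together, so their values belong to no single gene. The RNA came from LNCaP, an established human prostate cancer cell line that responds to androgen, and was read on Affymetrix arrays. All cultures were first kept for 2 days in RPMI with 10% charcoal-stripped serum, from which steroids have been removed. One group then received 1 nM R1881, a synthetic androgen, with 20 µM gedunin, a plant limonoid that has been studied as an inhibitor of HSP90 function. The second received 1 nM R1881 with DMSO, and the third ethanol and DMSO as vehicle, with treatment for 24 h by the descriptions. Each group had 3 arrays, 9 in all, which the titles mark as biological replicates without saying whether cultures were grown separately, so p-values measure the spread between these arrays. No group received gedunin alone.

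Fatty acid synthesis starts from citrate, which ACLY, ATP citrate lyase, splits into acetyl-CoA and oxaloacetate in the cytosol. ACACA, acetyl-CoA carboxylase 1, makes malonyl-CoA in the committed step, and FASN, the multifunctional fatty acid synthase, assembles palmitate. ELOVL enzymes catalyse the condensing step of chain elongation, SCD places the first double bond into saturated acyl chains, and FADS1 and FADS2 desaturate polyunsaturated chains at the delta-5 and delta-6 positions. ACSL1 activates long-chain fatty acids to acyl-CoA. SREBF1 encodes SREBP-1, a transcription factor held in the endoplasmic reticulum membrane until it is cleaved, whose targets include most of these enzymes. Prostate cancer cells are known for high lipid synthesis, and androgen is known to raise FASN transcripts in LNCaP cells through SREBP.

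The labels need a caution. KLK3, the gene of prostate-specific antigen and a textbook androgen-induced gene, read 7216 ± 384 on the gedunin arrays, 1341 ± 104 with the label R1881 and 11839 ± 513 with the label vehicle (RMA intensity on a linear scale, mean ± SD, n = 3). TMPRSS2 (16.9-fold lower) and FKBP5 (40.2-fold lower) also differed between labelled R1881 and labelled vehicle in the direction opposite to their known androgen response. The groups are therefore called by their labels, and every direction between them rests on labels that these genes go against. If the labels R1881 and vehicle were exchanged, the comparison of the gedunin arrays with those labelled vehicle would be the one made in the presence of androgen. The titles of the arrays labelled R1881 also give 6 h, against 24 h in their own descriptions and for the other groups, so a difference in time cannot be told apart from treatment. Of 8 luminal prostate markers 6 had a probe set of their own, and 0 of these lay on all arrays under 52.4, the lowest median of an array. That level is used below as a rough sign of a dim probe set. All 3 measured basal markers did lie under it, as did 3 of 4 adipocyte and 3 of 4 hepatocyte markers, both from cell types rich in lipid synthesis genes, 2 of 5 fibroblast markers and 2 of 3 measured leukocyte markers. The summed level of the adipocyte markers was 122 to 134 on the gedunin arrays, 119 to 144 on those labelled R1881 and 118 to 136 on those labelled vehicle, and that of the hepatocyte markers was 160 to 163, 165 to 169 and 159 to 175. In bulk RNA, a change in every cell and a change in the share of cells that express a gene cannot be told apart.

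Promoter windows from RefSeq (GRCh38.p14, 250 bases before to 50 after an annotated start) were matched for 9 of the 10 genes, 17 windows in all. FASN had no window, so the motif counts do not cover it. The windows below are shown because the results set these genes apart: on the gedunin arrays SCD overlapped with labelled vehicle, ACLY lay near labelled R1881, and ELOVL5 lay between the other groups. Capitals mark the CCAAT box, read on either strand, which is bound by NF-Y, a factor known to act beside SREBP.
SCD (chr10:100346983-100347282, plus strand): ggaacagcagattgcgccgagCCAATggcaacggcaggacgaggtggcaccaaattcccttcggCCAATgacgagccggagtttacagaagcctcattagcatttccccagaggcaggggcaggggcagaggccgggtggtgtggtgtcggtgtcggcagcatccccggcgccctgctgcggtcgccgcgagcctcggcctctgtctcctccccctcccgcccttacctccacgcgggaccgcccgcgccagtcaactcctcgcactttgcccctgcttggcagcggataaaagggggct
ACLY (chr17:41918973-41919272, minus strand): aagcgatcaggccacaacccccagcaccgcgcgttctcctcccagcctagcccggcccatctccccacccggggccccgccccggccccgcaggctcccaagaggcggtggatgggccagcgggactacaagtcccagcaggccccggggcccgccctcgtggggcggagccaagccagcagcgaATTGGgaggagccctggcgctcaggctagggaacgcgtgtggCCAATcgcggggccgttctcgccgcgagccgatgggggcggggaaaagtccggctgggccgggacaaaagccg
ELOVL5 (chr6:53348901-53349200, minus strand): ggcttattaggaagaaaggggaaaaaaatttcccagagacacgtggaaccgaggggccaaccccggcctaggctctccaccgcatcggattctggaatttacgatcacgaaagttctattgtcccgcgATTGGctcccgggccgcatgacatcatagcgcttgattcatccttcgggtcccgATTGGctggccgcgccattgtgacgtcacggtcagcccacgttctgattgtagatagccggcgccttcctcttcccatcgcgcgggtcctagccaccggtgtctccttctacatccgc
Each of these windows holds 2 CCAAT boxes, which begin 229 and 186 bases before the start in SCD, 65 and 23 in ACLY, and 122 and 68 in ELOVL5. Of the 17 windows 8 hold CCAAT and 5 hold it at least 2 times, against 34.6% and 10.8% of all 35116 windows. The windows of SREBF1, ELOVL2 and FADS1 hold no CCAAT. Neither do the furthest upstream windows of ACACA, ACSL1 and FADS2, though another window of each does. The windows shown therefore do not stand for all members. Windows of 1 gene can overlap, as those of ACLY do. The GC box GGGCGG was in 11 of the 17 windows, against 45.0% of all. The E-box CACGTG was in 1, that of ELOVL5, against 7.26% of all, and TCACNCCAC, a form of the sterol regulatory element, was in 1 of the 5 windows of ACSL1, against 1.13% of all. Motifs were read on both strands, no match was removed for overlapping another, and a match is a description of the sequence.

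Between the arrays labelled R1881 and those labelled vehicle, 19 of 20 member probe sets passed the test as lower and 0 as higher. FASN fell most, 3.28-fold, and ELOVL5, FADS2, SCD, ACACA and ACLY fell 2.45-fold to 1.89-fold by their brightest probe sets. The test was limma across all 22215 probe sets, two-sided, with Benjamini-Hochberg adjusted p under 0.05. Of all probe sets 12.2% were lower by the same rule and 14.8% higher, and among the 11271 whose mean lay above 52.4 these shares were 19.7% and 22.9%. The median log2 fold change of the 20 was -0.88, beside 0.00 over all probe sets. Because the genes were chosen with earlier results of these data known, the counts in all comparisons only describe this set.

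Between the gedunin arrays and those labelled R1881 the genes parted. Of the 20 probe sets 11 were higher, 1 was lower and 8 did not pass, where 12.4% of all probe sets were higher and 11.9% lower (21.2% and 19.1% of those above 52.4). ACSL1 was 2.81-fold and SCD 2.24-fold higher on the gedunin arrays by their brightest probe sets, FADS2 and ELOVL5 were 1.46-fold and 1.39-fold higher, and SREBF1 was 1.25-fold lower. The change of FASN did not pass. The median log2 fold change of the 20 was 0.27, beside -0.01 over all.

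Between the gedunin arrays and those labelled vehicle, 12 of the 20 were lower, 2 higher and 6 did not pass, where 10.6% of all probe sets were lower and 12.9% higher (17.4% and 21.1% of those above 52.4). FASN was 2.81-fold lower, ACSL1 1.85-fold higher, and 0 of 4 SCD probe sets passed. The median log2 fold change of the 20 was -0.32, beside -0.01 over all. The 3 comparisons share arrays, so their values are given side by side and are not independent of each other.

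**Figure D1:**
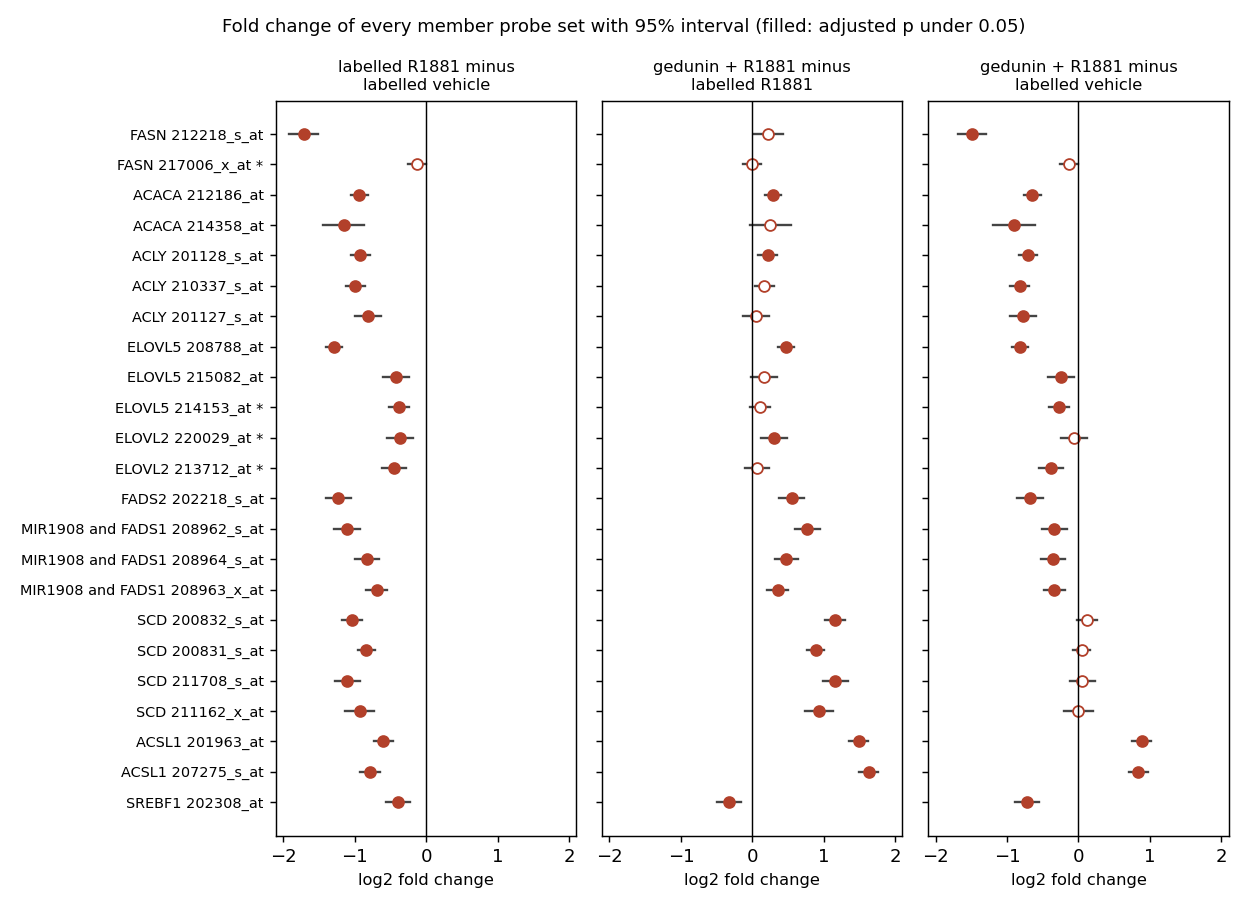
Log2 fold change (horizontal axis) of each member probe set in the 3 comparisons, with its 95% interval from limma. Filled points passed at adjusted p under 0.05, and a star marks a probe set whose mean lay under 52.4. All points lie left of 0 in the left panel and all but the FASN probe set 217006_x_at passed there, while the middle panel spreads from SREBF1 at -0.33 to ACSL1 at 1.63.

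The enzymes that build palmitate were low on the gedunin arrays and on those labelled R1881 alike, relative to those labelled vehicle. FASN (probe set 212218_s_at) had 367, 312 and 377 on the gedunin arrays, 302, 294 and 307 on the arrays labelled R1881, and 1046, 857 and 1075 on those labelled vehicle. The gedunin and labelled R1881 groups sat close together without overlap, and all 6 of these arrays lay far below the 3 labelled vehicle. Its log2 fold change was -1.72 ± 0.09 for labelled R1881 minus labelled vehicle (SE, limma adjusted p = 1.61e-08) and -1.49 ± 0.09 for gedunin minus labelled vehicle (adjusted p = 1.02e-07). For gedunin minus labelled R1881 it was 0.22 ± 0.09 (adjusted p = 0.107, 95% interval 0.02 to 0.42), which did not pass. That difference did pass without gedunin replicate 2 (adjusted p = 0.032) and without vehicle replicate 2 (adjusted p = 0.0459), so FASN stands near the threshold.

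ACACA (212186_at) had 997, 988 and 997 on the gedunin arrays, the first and last of them equal as deposited, 795, 821 and 822 on those labelled R1881, and 1522, 1516 and 1628 on those labelled vehicle. The 3 groups did not overlap. It was lower by 0.64 ± 0.05 on the log2 scale on the gedunin arrays than on those labelled vehicle, and the log2 fold change of gedunin minus labelled R1881 was 0.29 ± 0.05 (SE, limma adjusted p = 0.00109). A second probe set, 214358_at, was dim, with 2 of the 3 arrays labelled R1881 under 52.4. It had 57.3 ± 3.75, 48.7 ± 10.2 and 108 ± 16.6 on the gedunin, labelled R1881 and labelled vehicle arrays (mean ± SD, n = 3 each). It fell with the first against labelled vehicle in both groups, while its gedunin minus labelled R1881 value of 0.25 did not pass (adjusted p = 0.222) except without R1881 replicate 1 (0.42, adjusted p = 0.0148).

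ACLY was read by 3 probe sets that were all lower than with labelled vehicle in both groups. The brightest, 201128_s_at, had 1018, 958 and 1086 on the gedunin arrays, 847, 877 and 909 on those labelled R1881, and 1694, 1653 and 1642 on those labelled vehicle. All 3 groups were again apart, with the gedunin arrays much nearer to those labelled R1881. The log2 fold change of gedunin minus labelled vehicle was -0.71 for this probe set, -0.82 for 210337_s_at and -0.77 for 201127_s_at, and all 3 passed. For gedunin minus labelled R1881 the values were 0.22, 0.17 and 0.05, of which only the first passed (limma adjusted p = 0.0179, 0.066 and 0.771). That call ended without gedunin replicate 1 (adjusted p = 0.0512), gedunin replicate 3 (0.0826) or R1881 replicate 1 (0.0699), and with a further quantile normalization (0.171). Probe set 210337_s_at passed as well in 4 other settings, such as a test of only the probe sets above 52.4 (adjusted p = 0.0365).

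**Figure D2:**
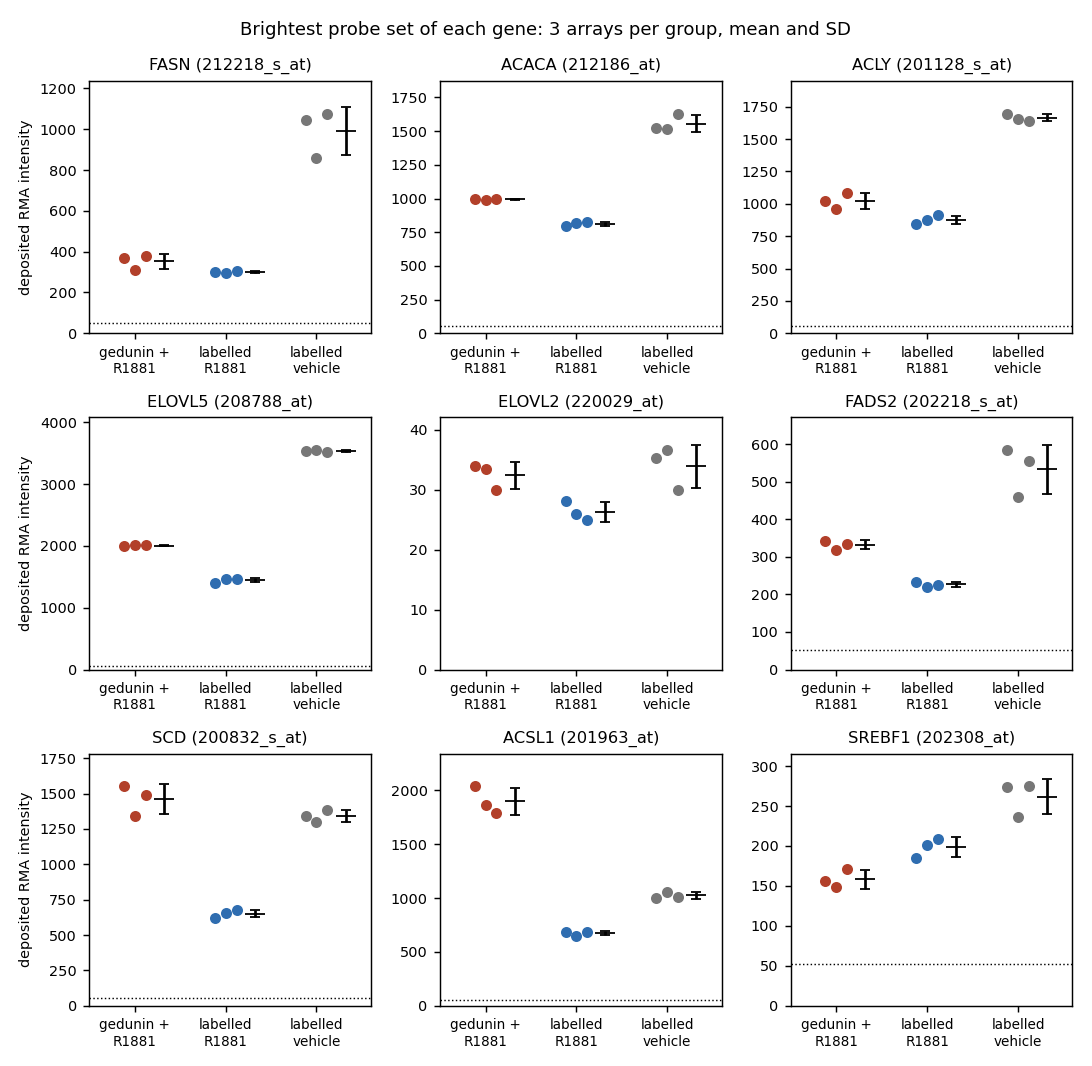
Deposited intensity (vertical axis, linear and starting at 0) of the brightest probe set of each gene on every array, with the mean and SD of 3 arrays beside the points. The dotted line is the lowest array median, 52.4, and lies above the plotted range for ELOVL2. FASN, ACACA and ACLY are low in both groups on the left, SCD is low only on the arrays labelled R1881, and ACSL1 is highest on the gedunin arrays.

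Of the elongases, ELOVL5 extends polyunsaturated acyl chains of intermediate length and changed in all 3 comparisons. Its probe set 208788_at had 2005, 2008 and 2008 on the gedunin arrays, 1406, 1460 and 1472 on those labelled R1881, and 3542, 3550 and 3516 on those labelled vehicle. The 3 groups were tightly grouped and wide apart, though the last 2 gedunin values were equal as deposited. Relative to labelled vehicle the log2 fold change was -0.82 ± 0.05 on the gedunin arrays and -1.29 ± 0.05 on those labelled R1881 (SE, limma adjusted p = 9.38e-08 and 7.93e-10), and between gedunin and labelled R1881 it was 0.47 ± 0.05 (adjusted p = 1.18e-05). ELOVL5 on the gedunin arrays thus stood between the other groups.

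The other ELOVL5 probe sets, near or under 52.4, gave smaller changes. Probe set 215082_at had 60.1 ± 1.12, 53.7 ± 5.37 and 71.8 ± 6.92 on the gedunin, labelled R1881 and labelled vehicle arrays, and 214153_at had 23.7 ± 0.657, 21.9 ± 1.33 and 28.5 ± 1.63 (mean ± SD, n = 3 each). Both were lower on the arrays labelled R1881 than on those labelled vehicle, at -0.42 and -0.38 on the log2 scale, and neither passed between gedunin and labelled R1881. The call of 215082_at for gedunin minus labelled vehicle (-0.25, adjusted p = 0.0483) ended without any 1 of 6 arrays: each gedunin replicate (adjusted p = 0.133, 0.0896 and 0.113), vehicle replicate 1 (0.172), vehicle replicate 3 (0.168) and R1881 replicate 1 (0.0636), and with an intensity trend (0.0526) or a pseudocount of 16 (0.051). The log2 gap between 208788_at and 215082_at within an array averaged 5.06 ± 0.03 on the gedunin arrays, 4.75 ± 0.16 for labelled R1881 and 5.63 ± 0.15 for labelled vehicle (SD, n = 3). These gaps did not overlap between any pair of groups (exact two-sided permutation p = 0.1, the smallest that 3 against 3 allow, and 0.24 adjusted over 33 such tests within genes). With 215082_at this near to 52.4, a smaller transcript change and a value held up by background cannot be told apart.

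The second FASN probe set, 217006_x_at, was dim. It read 25.7, 25.6 and 23.8 on the gedunin arrays, 24.7, 25.6 and 25.0 on those labelled R1881, and 28.4, 25.7 and 28.2 on those labelled vehicle. All 9 values lay under 52.4 and it passed in 0 of the 3 comparisons, with log2 fold changes of -0.13, -0.01 and -0.13 for labelled R1881 minus labelled vehicle, gedunin minus labelled R1881 and gedunin minus labelled vehicle. The sign of the value near 0 turned under other scalings. In Affymetrix naming the suffix x marks probe sets whose probes may bind other transcripts.

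ELOVL2, which extends longer polyunsaturated chains, was dim on every array. Probe set 220029_at read 33.9, 33.4 and 29.9 on the gedunin arrays, 28.2, 25.9 and 25.0 on those labelled R1881, and 35.3, 36.6 and 29.9 on those labelled vehicle. The arrays labelled R1881 lay below the rest, and the other groups overlapped. Its log2 fold change was -0.36 for labelled R1881 minus labelled vehicle (limma adjusted p = 0.00566) and 0.30 for gedunin minus labelled R1881 (adjusted p = 0.0194). The call for gedunin ended without gedunin replicate 1 (0.0827), gedunin replicate 2 (0.0714), R1881 replicate 2 (0.0585) or R1881 replicate 3 (0.0657). Probe set 213712_at, at 15.8 ± 1.22, 15.1 ± 1.46 and 20.5 ± 0.308 on the gedunin, labelled R1881 and labelled vehicle arrays (mean ± SD, n = 3 each), gave 0.07 for gedunin minus labelled R1881 (adjusted p = 0.636). For gedunin minus labelled vehicle, 213712_at was lower (-0.38, limma adjusted p = 0.00274) and 220029_at was not called (-0.06, adjusted p = 0.692). The log2 gap between the ELOVL2 probe sets did not overlap between gedunin and labelled R1881 (exact two-sided permutation p = 0.1, and 0.24 adjusted). The 0.1 is the smallest that 3 against 3 allow, so a difference between the probe sets was not established. At these levels transcript and background cannot be told apart.

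**Figure D3:**
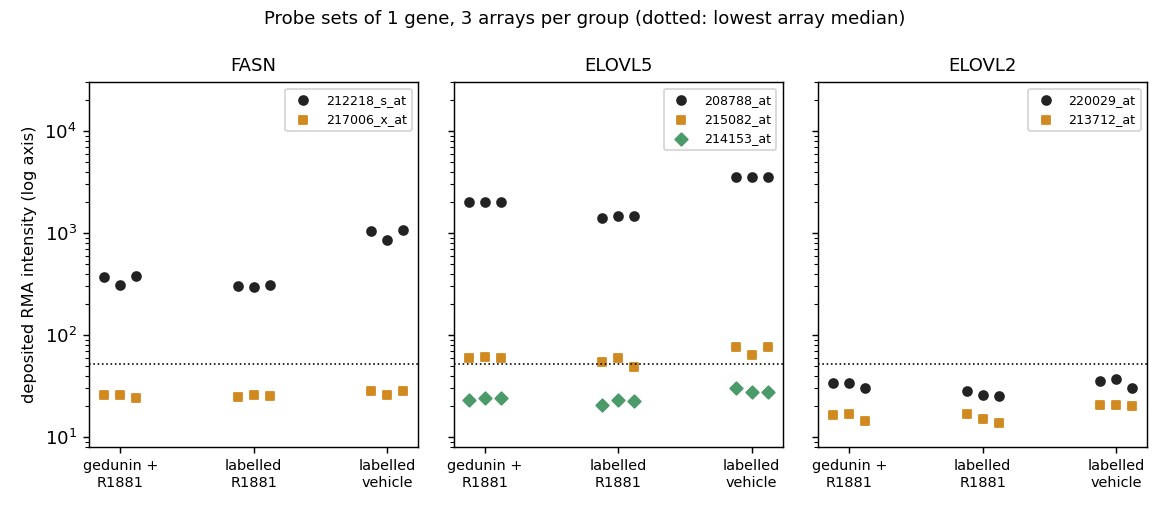
Deposited intensity on a log axis of every probe set of FASN, ELOVL5 and ELOVL2 on each array, with the lowest array median, 52.4, as a dotted line. Changes between groups are wide for the bright probe sets of FASN and ELOVL5, and both ELOVL2 probe sets lie under the line on all 9 arrays.

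Among the desaturases, SCD was higher on the gedunin arrays than on those labelled R1881 and did not pass against labelled vehicle. It was read by 4 probe sets, and the brightest, 200832_s_at, had 1551, 1343 and 1489 on the gedunin arrays, 623, 658 and 675 on those labelled R1881, and 1345, 1297 and 1383 on those labelled vehicle. The gedunin and labelled vehicle arrays overlapped, and every array labelled R1881 lay far below all 6 of them. The log2 fold changes of the 4 probe sets ran from -1.10 to -0.84 for labelled R1881 minus labelled vehicle and from 0.88 to 1.16 for gedunin minus labelled R1881, and all 8 passed. Probe set 211708_s_at, for example, had 522, 559 and 582 on the gedunin arrays, 250.1, 259.7 and 235 on those labelled R1881, and 556, 582 and 469.9 on those labelled vehicle. For gedunin minus labelled vehicle they ran from -0.00 to 0.12, with 95% intervals of -0.02 to 0.26 for the brightest and -0.20 to 0.20 for the widest, 211162_x_at. None of these passed (limma adjusted p = 0.235 for the brightest).

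FADS2 was at an intermediate level on the gedunin arrays. It had 343, 319 and 333 on the gedunin arrays, 234, 220 and 226 on those labelled R1881, and 584, 460 and 557 on those labelled vehicle. The groups did not overlap. Vehicle replicate 2 was the lowest of its group, as it was by the brightest probe sets of FASN, ACACA, SCD and SREBF1. By those of ACLY, ELOVL5, ELOVL2 and ACSL1 it was not. The log2 fold change of FADS2 for gedunin minus labelled R1881 was 0.55 ± 0.08 (SE, limma adjusted p = 0.000204), and that for gedunin minus labelled vehicle was -0.68 ± 0.08 (adjusted p = 3.88e-05). The 3 probe sets annotated to FADS1 and MIR1908 together were also highest on the arrays labelled vehicle and lowest on those labelled R1881. The brightest by mean, 208962_s_at, read 158 ± 4.89 on the gedunin arrays, 93.3 ± 11.6 on those labelled R1881 and 200 ± 8.86 on those labelled vehicle (mean ± SD, n = 3 each). All 3 passed in every comparison, with log2 fold changes of 0.36 to 0.77 for gedunin minus labelled R1881 and -0.36 to -0.34 for gedunin minus labelled vehicle.

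ACSL1 was the only member gene called higher on the gedunin arrays than on those labelled vehicle. Probe set 201963_at had 2036, 1863 and 1791 on the gedunin arrays, 684, 652 and 687 on those labelled R1881, and 999.9, 1059 and 1012 on those labelled vehicle. Every gedunin array exceeded every array labelled vehicle, which in turn exceeded every array labelled R1881. The log2 fold changes were 1.49 ± 0.06 for gedunin minus labelled R1881, 0.89 ± 0.06 for gedunin minus labelled vehicle and -0.60 ± 0.06 for labelled R1881 minus labelled vehicle (SE, limma adjusted p = 2.41e-09, 2.89e-07 and 6.92e-06). Its second probe set, 207275_s_at, gave 1.63, 0.84 and -0.79 in the same order and passed each time.

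Between gedunin and labelled R1881, SREBF1 was lower where its known targets SCD and FADS2 were higher, while all 3 genes were lower for labelled R1881 than for labelled vehicle. Its single probe set had 156, 148 and 171 on the gedunin arrays, 185, 201 and 209 on those labelled R1881, and 274, 236 and 274 on those labelled vehicle. The gedunin arrays were the lowest of the 3 groups, with no overlap. The log2 fold change was -0.33 ± 0.08 for gedunin minus labelled R1881 and -0.72 ± 0.08 for gedunin minus labelled vehicle (SE, limma adjusted p = 0.00791 and 1.81e-05), and -0.40 ± 0.08 for labelled R1881 minus labelled vehicle (adjusted p = 0.00194). Array values give transcript levels and not the cleavage of the SREBP-1 protein.

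To compare the changes of the members, the log2 value of FASN was subtracted from that of each other gene on the same array, by the brightest probe sets. FASN fell most between labelled R1881 and labelled vehicle, and was also the most lowered between gedunin and labelled vehicle. In both comparisons with labelled vehicle every difference from it is therefore higher by the choice of reference. SCD minus FASN was 2.05 ± 0.07 on the gedunin arrays, 1.12 ± 0.06 for labelled R1881 and 0.44 ± 0.14 for labelled vehicle (SD, n = 3 each), with no overlap. ACSL1 minus FASN was 2.43 ± 0.17, 1.16 ± 0.01 and 0.05 ± 0.22 in the same groups, and SREBF1 minus FASN was -1.15 ± 0.08, -0.60 ± 0.09 and -1.92 ± 0.06. ELOVL5 and FADS2 also differed from FASN without overlap between gedunin and labelled R1881, by 0.25 and 0.33. ACACA and ACLY overlapped there, with differences of 0.07 and -0.01 (exact permutation p = 0.6 and 0.9), which does not show that they changed alike. ELOVL2 was under 52.4 on all arrays, and its difference is not read here. Each difference without overlap had an exact two-sided permutation p = 0.1, the smallest that 3 against 3 allow, and 0.11 adjusted over 24 tests. No difference could therefore pass at 0.05.

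For each gene, the probe sets of other genes nearest to its brightest probe set were found by the distance between log2 profiles centred over the 9 arrays. The nearest to FASN were RAB4A, MPHOSPH9 and GLUD1 (r of 0.99 each over 9 arrays). PRDX6 was nearest to ACACA and to ACLY alike, TPM1 to ELOVL5, AAMP to ELOVL2, PPIB to SCD, MYCBP2 to SREBF1 and NUPR1 to ACSL1. The gene nearest to FADS2 was SCAP, the escort protein that carries SREBP to the Golgi (distance 0.25, r = 0.99). These likenesses rest on 3 groups of arrays and are given as a description.

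The wider lipid pathway was read from 8 lists of genes, leaving out the members: 81 of 107 genes were measured by 140 probe sets with 1 symbol. Of these 50% passed between labelled R1881 and labelled vehicle, 42.1% between gedunin and labelled R1881, and 47.1% between gedunin and labelled vehicle. Over all probe sets these shares were 27%, 24.3% and 23.5%, and over those with a mean above 52.4 they were 42.6%, 40.4% and 38.4%. Of the 140 probe sets 108 lay above 52.4, and the difference between these shares was not tested. Each gene of these lists named below as higher or lower passed the test in that comparison. Where a gene had several probe sets, its value is that of the most changed one. The median log2 fold changes of the 140 probe sets were -0.02, -0.03 and -0.04, beside 0.00, -0.01 and -0.01 over all.

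Among genes that supply the cytosolic pathway, ME1, the malic enzyme that makes NADPH, averaged, by 1 of its 3 probe sets, 1199 on the gedunin arrays, 168 on those labelled R1881 and 247 on those labelled vehicle. It was 7.14-fold higher on the gedunin arrays than on those labelled R1881, though the 3 ran from 0.12 to 2.84 on the log2 scale. MLYCD, which breaks malonyl-CoA down, was lower by 0.26 in that comparison. Of the 11 probe sets of this list 0 were higher and 3 lower between labelled R1881 and labelled vehicle, and 2 were higher and 2 lower between gedunin and labelled R1881. In the elongation list ELOVL6, which extends palmitate, ran against ELOVL5: its log2 fold change was 0.90 for labelled R1881 minus labelled vehicle and 1.00 for gedunin minus labelled vehicle. HSD17B12, the ketoreductase of the cycle, was higher at 0.41 and 0.50. HACD2, of the same list, was lower in both, at -0.28 and -0.30. Of 7 probe sets of this list 4 were higher and 1 lower between labelled R1881 and labelled vehicle. Between gedunin and labelled vehicle 3 were higher and 1 lower, and 0 passed between gedunin and labelled R1881. In the desaturation list DEGS1, which desaturates sphingolipids, was 2.32-fold lower on the gedunin arrays than on those labelled vehicle, and CYB5A, the cytochrome b5 that passes electrons to desaturases, 1.95-fold lower by the most changed of its 4 probe sets, whose log2 fold changes ran from -0.96 to -0.37. FADS3 was 1.43-fold higher on the gedunin arrays than on those labelled R1881, its probe sets running from 0.23 to 0.52 on the log2 scale. Of 12 probe sets of this list 3 were higher and 5 lower there. Among all probe sets above 52.4, 22.9% were higher and 19.7% lower between labelled R1881 and labelled vehicle. Between gedunin and labelled R1881 these shares were 21.2% and 19.1%, and between gedunin and labelled vehicle 21.1% and 17.4%. These short lists were not tested against those shares.

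In the list of SREBP regulators INSIG1, which retains SREBP in the endoplasmic reticulum and is itself a target of it, averaged 900.0 on the gedunin arrays, 245 on those labelled R1881 and 1029 on those labelled vehicle. The 3 INSIG1 probe sets ran from 1.41 to 1.88 on the log2 scale for gedunin minus labelled R1881. SCAP, whose product is retained by INSIG1, was 2.49-fold lower on the arrays labelled R1881 than on those labelled vehicle and 1.56-fold higher on the gedunin arrays than on those labelled R1881. INSIG2 ran the other way, 2.44-fold higher for labelled R1881 against labelled vehicle. SREBF2, the gene of SREBP-2, was 1.47-fold higher on the gedunin arrays than on those labelled R1881, where SREBF1 was lower. Of 30 probe sets of this list 4 were higher and 11 lower between labelled R1881 and labelled vehicle, and 6 were higher and 2 lower between gedunin and labelled R1881. Over all probe sets 14.8% were higher and 12.2% lower in the first comparison, and 12.4% and 11.9% in the second. Among those above 52.4, where 27 of the 30 lay, these shares were 22.9% and 19.7%, and 21.2% and 19.1%. The 6 higher of 30 thus stood near the share of bright probe sets, and the list was not tested.

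Downstream of ACSL1, DBI, an acyl-CoA binding protein, was 4.70-fold lower on the arrays labelled R1881 than on those labelled vehicle and 2.42-fold higher on the gedunin arrays than on those labelled R1881. Of the 16 probe sets of its list 5 were higher and 4 lower between gedunin and labelled R1881. LPIN1, a phosphatidate phosphatase of glycerolipid assembly, averaged 525 on the gedunin arrays and 120 on those labelled R1881, 4.37-fold higher. AGPAT5, an acyltransferase, was 2.08-fold higher there and LPCAT3, which remodels phospholipids, 1.79-fold lower, though its other probe set stayed at -0.00. Of 20 probe sets of this list 6 were higher and 3 lower. In the mitochondrial synthesis list CBR4 was 2.65-fold lower on the gedunin arrays than on those labelled R1881, and 2 of 6 probe sets were lower and 0 higher. In the opposing pathway, fatty acid oxidation, 15 of 38 probe sets were lower and 4 higher between gedunin and labelled R1881, and 18 lower and 4 higher between gedunin and labelled vehicle. ETFB, ECHS1 and HADH, of mitochondrial oxidation, were 1.84-fold, 1.70-fold and 1.75-fold lower on the gedunin arrays than on those labelled R1881. The 3 HADH probe sets ran from -0.81 to -0.41 on the log2 scale. ECI2, an enoyl-CoA isomerase, and ACADM, the medium-chain dehydrogenase, were 2.23-fold and 1.95-fold lower on the gedunin arrays than on those labelled vehicle. ECI2 was lower still on the arrays labelled R1881, 2.80-fold against labelled vehicle. It averaged 1106 on the gedunin arrays and 882 on those labelled R1881, opposite in direction to ETFB, ECHS1 and HADH. Between labelled R1881 and labelled vehicle the oxidation list split, with 16 higher and 12 lower. Among all probe sets above 52.4, 21.2% were higher and 19.1% lower between gedunin and labelled R1881. These shares were 21.1% and 17.4% between gedunin and labelled vehicle, and 22.9% and 19.7% between labelled R1881 and labelled vehicle. No list was tested against these shares.

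**Figure D4:**
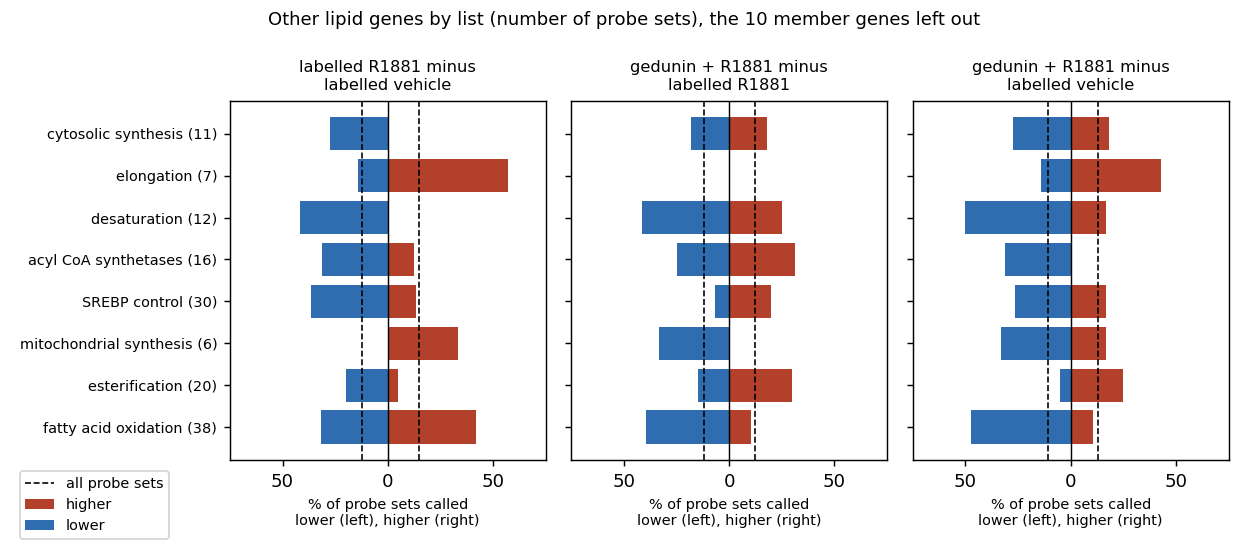
Share of the probe sets of each lipid list, members left out, that passed as lower (left, blue) or higher (right, red) in the 3 comparisons, in percent. Dashed lines give the shares over all probe sets, and the number of probe sets stands beside each list. Oxidation genes lean to the left in both gedunin comparisons, and the bars of short lists rest on as few as 6 probe sets.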

How the data were processed

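LNCaP RNA was hybridised to 9 Affymetrix arrays. The deposited values are intensities on a linear scale (8.63 to 20189), made by the authors with RMA according to the submitters' processing notes. The software is not given in the sources used here. RMA includes quantile normalization, which hides any shift common to all transcripts. Array medians lay between 52.4 and 54.5, and no detection calls were used. The number of arrays limits precision. Groups come from the sample titles.

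Values were then log2-transformed. The platform annotation gives 19064 of the 22277 probe sets a single symbol, 1043 several and 2108 none, and 62 are controls. Symbols were compared with human RefSeq genes: 12 had no match and 0 changed. Limma 3.58.1 in R 4.3.3 was fitted to all 9 arrays with 1 coefficient per group, eBayes without trend, and Benjamini-Hochberg adjustment over 22215 probe sets. On simulated data with 22215 probe sets, calls recovered 28%, 36% and 26% of 1.2-fold changes between labelled R1881 and labelled vehicle, gedunin and labelled R1881, and gedunin and labelled vehicle, and 92%, 86% and 98% of 1.5-fold changes. Only 50 probe sets were changed at each size, a far smaller share than was called in the measured data. The adjustment depends on that share, so these percentages need not hold for the measured data. Alternatives changed the probe sets tested, the arrays fitted, the scaling, the variance model and the pseudocount, and left out each array.

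The members and lists were chosen with earlier results of these data known. Every member probe set was described, and of each list at most 3 called genes with the largest change per comparison. Equal deposited values occurred within a group for 5 member probe sets (ACSL1, ELOVL5, ACLY, ACACA and 1 annotated to FADS1 and MIR1908); their source was not tested.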

Additional observations from a re-analysis of the deposited data

How the results depend on the processing

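With 1 probe set per gene, which leaves 9 of the 20 member probe sets, 9 were lower between labelled R1881 and labelled vehicle, 7 higher between gedunin and labelled R1881, and 1 higher and 6 lower between gedunin and labelled vehicle. Over all genes it called 2000 higher and 1624 lower, 1676 and 1601, and 1800 and 1419 in these comparisons, where all probe sets gave 3298 and 2709, 2753 and 2653, and 2867 and 2356. Leaving out 1 array at a time gave 19 lower, 9 to 12 higher and 11 to 12 lower. Reversed signs were confined to values near 0 that did not pass. For gedunin minus labelled R1881, FASN 217006_x_at was 0.0094 with arrays centred on their medians, 0.0057 with quantile normalization and -0.024 to 0.030 with 1 array left out, ACLY 201127_s_at was as low as -0.014 and ELOVL2 213712_at as low as -0.00024. For gedunin minus labelled vehicle, SCD 211162_x_at was 0.0040 with arrays centred and -0.067 to 0.047 with 1 array left out, and SCD 211708_s_at -0.037 to 0.12.
Deviations of same-numbered arrays correlated at -0.10 to 0.14, which does not show whether the replicate numbers pair the arrays. The values were 0.05 to 0.14 between labelled vehicle and labelled R1881. They were -0.10 to 0.01 between gedunin and labelled R1881, and -0.09 to -0.05 between gedunin and labelled vehicle. With the replicate block 12 member probe sets were higher between gedunin and labelled R1881, FASN 212218_s_at among them (adjusted p = 0.0328), and 215082_at was not called against labelled vehicle (adjusted p = 0.0707). Dim probe sets, under 52.4, limit what can be said of ELOVL2.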
